A study of Mus musculus with 4 samples.

Results

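The genes described here are the 35 that encode mTORC1 and the machinery through which it reads amino acid supply, out of 53465 genes in the count table. They were taken by gene name: the subunits of the mTOR complexes, the small GTPase Rheb and its TSC repressor, the Rag GTPases, the Ragulator anchor, folliculin and its partner, the GATOR1 and GATOR2 complexes, the amino acid sensors and the best known targets of the kinase. All 35 names stood on exactly 1 row each, and all 35 passed the filter on low counts. The cells were CD8+ T cells of mouse spleen, stimulated through CD3 and CD28 with antibody-coated beads over 24 h. There were 4 RNA sequencing libraries, 2 with the label WT (wild type) and 2 with the label PP2Cm KO (knockout, PP2Cm-/-), which the labels number as biological replicates. Stimulation, tissue and cell type were shared by both groups. Whether the deletion is germline or restricted to a cell type, and the strain, age and sex of the mice, are stated nowhere in the labels. Nothing in the labels says that replicates came from separate animals, so p values measure only the spread between these libraries.

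mTORC1 is a kinase complex that promotes protein, lipid and nucleotide synthesis when growth signals and amino acids are both present. Amino acids act through the Rag GTPases, which Ragulator holds on the lysosome and which bring mTORC1 to Rheb, its direct activator. GATOR1 switches the Rags off, and GATOR2 opposes GATOR1. Sensors such as the sestrins SESN1 and SESN2 (leucine) and CASTOR1 (arginine) restrain GATOR2 until their amino acid binds them. Antigen receptor and CD28 signals raise mTORC1 activity in T cells, and leucine entry is needed to keep it active. PP2Cm, encoded by Ppm1k, is a phosphatase that switches on the breakdown of leucine and the other branched-chain amino acids. Most control of this pathway is on protein binding, phosphorylation and location, none of which RNA counts measure.

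The description code of each library names the opposite genotype to its title and genotype field. Groups here follow title and genotype field, and every sign would turn if the codes were right. Ppm1k was higher in both KO-labelled libraries, at 11.8 and 14.3 counts per 1000000 (CPM, scaled by TMM) against 7.84 and 5.53 CPM in the WT-labelled pair, so it went against the labels. Its log2 fold change was 0.97 (SE 0.23, edgeR adjusted p = 0.186), and the counts do not show which part of the gene the reads came from. The libraries held 12967251 and 17316284 counts (labelled WT) and 13394074 and 14199020 counts (labelled KO). CD8 T cell markers were abundant in every library, with 8 of 8 detected and a summed level of 2616 to 2867 CPM in the WT-labelled pair and 2406 to 2533 CPM in the KO-labelled pair. Of 7 lists chosen for other cells, 4 summed lower in both KO-labelled libraries, as did the CD8 T cell list. Among single genes tested, 23.3% lay lower in both, and the share for sums of genes was not computed. B cell markers (7 of 7 detected) stood at 363 to 420 against 264 to 300 CPM (labelled WT against labelled KO), nearly all of it Ighm. Erythroid and platelet markers (5 of 5) stood at 4.84 to 10.1 against 2.33 to 3.39 CPM. NK and gamma-delta T cell markers (5 of 5) stood at 105 to 122 against 98.7 to 99.4 CPM, most of it Eomes. Ncr1 and Klrb1c reached at most 2.11 CPM in any library. Trdc was higher in both KO-labelled libraries (8.07 and 6.95 against 10.4 and 9.21 CPM). Stromal and endothelial markers (4 of 5, Cdh5 at 0) stood at 31.2 to 37.5 against 18.0 to 19.0 CPM, nearly all of it Pecam1, with no other gene above 0.530 CPM. CD4 and regulatory T cell markers (5 of 5) summed higher in both KO-labelled libraries, at 38.2 to 39.0 against 40.9 to 46.7 CPM. Within that list Cd4, Foxp3 and Cd40lg were each higher in both KO-labelled libraries. Ikzf2, the largest part, overlapped, and Zbtb7b was lower in both KO-labelled libraries (9.53 and 16.7 against 9.02 and 7.06 CPM). Myeloid markers (7 of 9, S100a9 and Ly6g at 0) and dendritic cell markers (5 of 6, Cd209a at 0) overlapped, at 1.84 to 6.30 against 2.98 to 3.31 CPM and 6.53 to 7.45 against 4.66 to 8.03 CPM. Which cells the RNA of Ighm, Eomes and Pecam1 came from was not tested. The part of other cells in the differences below was not tested either.

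The question was whether the RNA of this machinery differed with the label. Most of it differed little. Of the 35 members, 28 had a log2 fold change (labelled KO minus labelled WT) within 0.25 of 0, which was so for 62.0% of all 13528 genes tested. The median over the members was 0.03, where the median of all genes tested was −0.01, with 18 members positive and 17 negative. The 7 others were of both signs. Mios, a subunit of GATOR2, Fnip1, the partner of folliculin, and Rragd, a Rag GTPase, were higher in both KO-labelled libraries. The sestrins Sesn1 and Sesn3 and the GATOR1 subunit Nprl2 were lower in both, and the arginine sensor Castor1 overlapped.

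No member passed the threshold of 0.05 on the adjusted p of edgeR, where 0.207% of all genes did. At an unadjusted p under 0.05 there were 2 members higher and 3 lower, 5 of 35, where 12.9% of all genes tested lay under that bound. DESeq2 called 1 member, Mios, where it called 2.05% of all genes, and limma on log2(FPKM + 1), which called 0.037% of all genes, called 0. Both KO-labelled libraries lay above both labelled WT in 9 members and below both in 6, where 21.5% and 23.3% of all genes did so. The members' counts lie near these shares. Counting both orders together, 44.9% of all genes had no overlap. In RNA from whole samples, fewer cells of a type and less RNA per cell cannot be told apart. With 2 libraries against 2, an exact permutation test of a single gene cannot go below 0.333 (two-sided), so the p values rest on the spread pooled over genes.

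**Figure D1:**
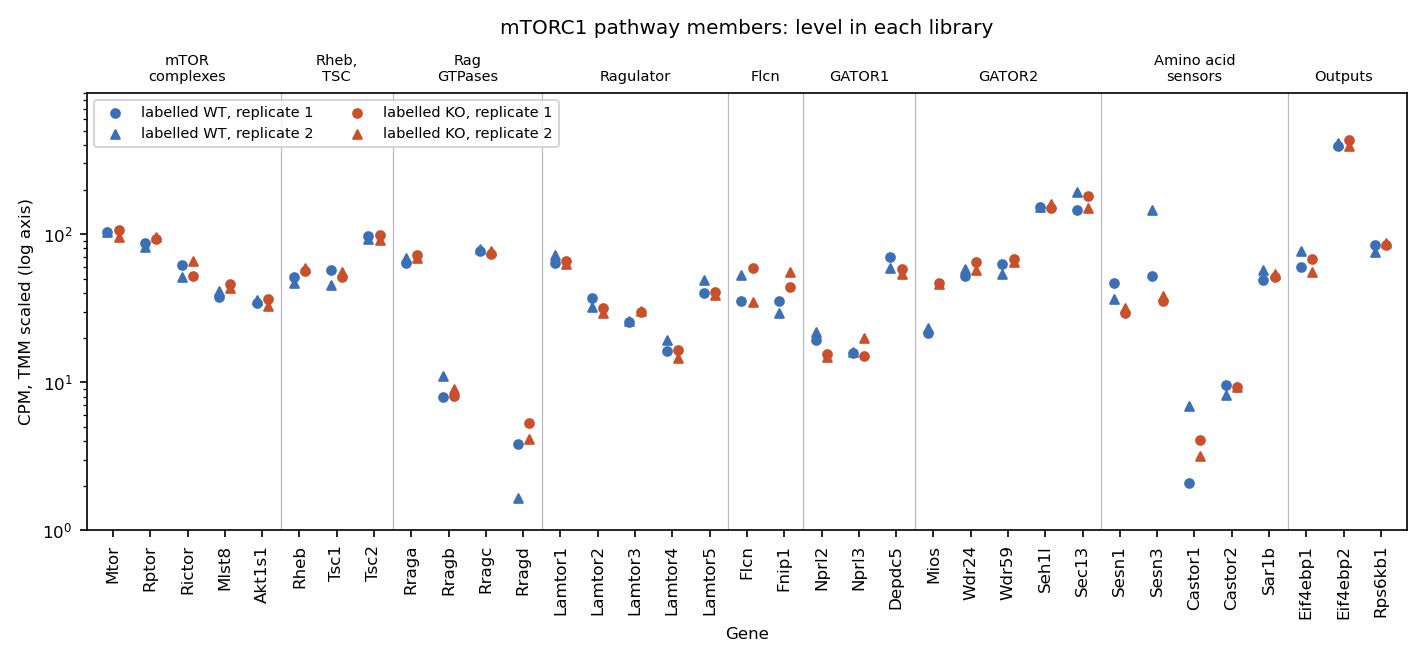
Level of each of the 35 members in each of the 4 libraries, as CPM scaled by TMM on a log axis, ordered by complex. Blue points are libraries labelled WT and red points libraries labelled KO, with circles for replicate 1 and triangles for replicate 2. For most genes the 4 points lie on top of each other, Mios separates by label, and Sesn3 is set apart by 1 library, labelled WT replicate 2, at 144 CPM.

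**Figure D2:**
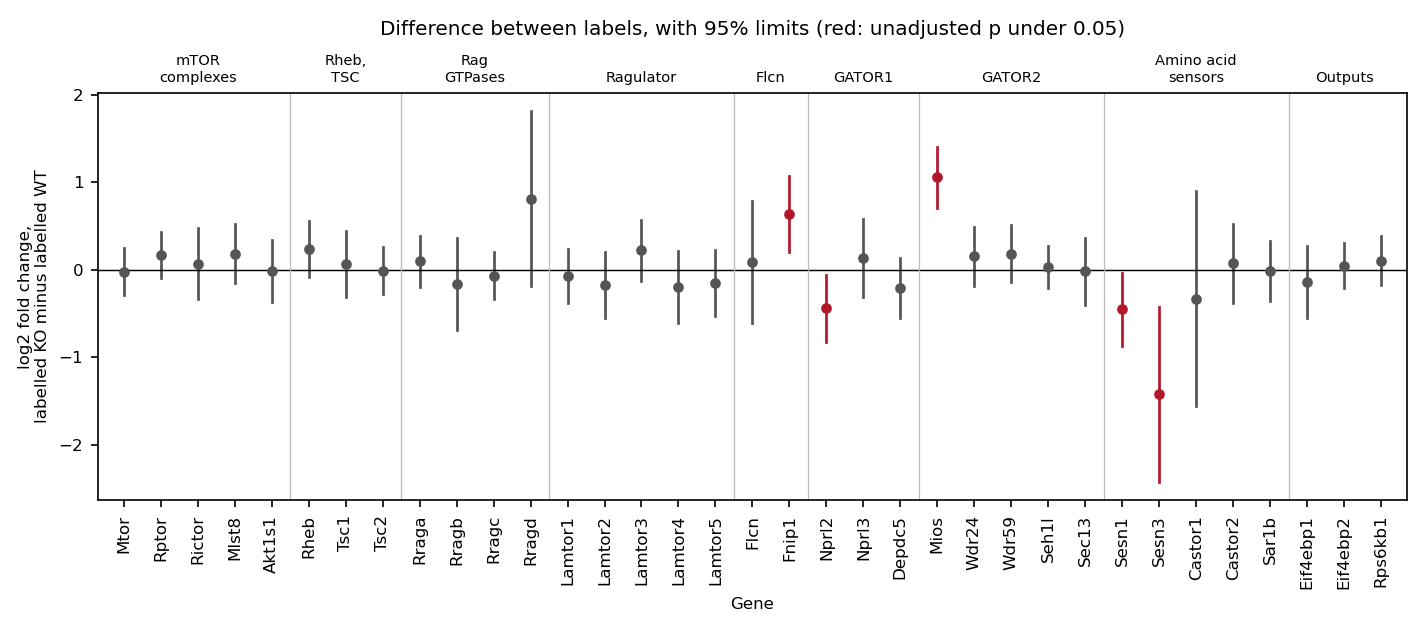
Log2 fold change of each member, labelled KO minus labelled WT, with its 95% limits from the edgeR fit, ordered by complex. The 5 members in red, Fnip1, Nprl2, Mios, Sesn1 and Sesn3, have an unadjusted p under 0.05 and limits that leave out 0.

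The kinase and its scaffolds had similar values under both labels. Mtor, the catalytic subunit, stood at 104 and 103 CPM in the WT-labelled pair and at 107 and 95.6 CPM in the KO-labelled pair. Its log2 fold change was −0.03, with 95% limits of −0.29 and 0.24. Rptor, the scaffold that recruits substrates to mTORC1, stood at 87.0 and 81.2 CPM against 93.2 and 95.5 CPM. Both KO-labelled libraries were above both labelled WT, but by 0.17 on the log2 scale (SE 0.11, edgeR adjusted p = 0.582). Rictor, which takes the place of Raptor in mTORC2, had a log2 fold change of 0.07, the shared subunit Mlst8 0.18 and Akt1s1, which encodes the inhibitor PRAS40, −0.02. On the deposited FPKM scale, which divides by a gene length, Rptor was 1.21 to 1.54 times Rictor in the 4 libraries. The length implied by counts and FPKM was 0.795 to 2.43 times the merged exon length in GENCODE M21 over the members, so FPKM ratios between genes depend on the length used, while their comparison across libraries does not.

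Rheb, the GTPase that activates mTORC1 directly, stood at 51.1 and 46.5 CPM in the WT-labelled pair and at 55.9 and 58.8 CPM in the KO-labelled pair. The groups did not overlap, yet the log2 fold change of 0.23 (SE 0.13) had an edgeR adjusted p of 0.527. Tsc2, which turns Rheb off, stood at 97.4 and 92.7 CPM against 98.0 and 90.6 CPM, so the WT-labelled values lay inside the KO-labelled range. The log2 fold change of Tsc2 was −0.01 (95% limits −0.28 and 0.25). That of its scaffold Tsc1 was 0.07 (95% limits −0.31 and 0.44). Reads of Tsc2 are less certain than those of most members, since 7.2% of its exon bases are shared with Pkd1 on the opposite strand and no source used here gives the use of strand in counting. In all, 10 members share exon bases with a gene on the opposite strand, Rptor, Mlst8, Akt1s1, Rragc, Lamtor1, Wdr59 and Seh1l among them, and 25 share none with any gene.

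The Rag GTPases work as pairs of RagA or RagB with RagC or RagD, and in these cells 1 paralogue of each kind made up most of the RNA. Rraga stood at 39.3 and 42.0 FPKM in the WT-labelled pair and at 44.6 and 43.4 FPKM in the KO-labelled pair, 11.4 to 16.2 times Rragb within a library. Rragc stood at 13.6 and 13.8 FPKM against 12.8 and 13.7 FPKM, 14.6 to 51.8 times Rragd. Log2 fold changes were 0.09 for Rraga, −0.16 for Rragb and −0.07 for Rragc, with edgeR adjusted p values of 0.808, 0.815 and 0.858. Rragd, the lowest of the 35 members on the FPKM scale, had counts of 50 and 28 in the WT-labelled pair and 71 and 60 in the KO-labelled pair. That is 3.84 and 1.65 CPM against 5.34 and 4.15 CPM, a log2 fold change of 0.81 with 95% limits of −0.19 and 1.81 (edgeR adjusted p = 0.479). Both KO-labelled libraries were higher, but the replicates labelled WT themselves differed 2.33-fold, and the log2 fold change became 0.30 when labelled WT replicate 2 was left out and 1.52 when labelled WT replicate 1 was.

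Ragulator, the scaffold of 5 LAMTOR proteins that anchors the Rags, had small differences of both signs. Lamtor1, which carries the lipid anchor, stood at 63.8 and 72.4 CPM in the WT-labelled pair and at 66.2 and 63.2 CPM in the KO-labelled pair. The values overlapped, with a log2 fold change of −0.07 (SE 0.13). Of the 5 subunits 4 had negative and 1 positive log2 fold changes, from −0.20 for Lamtor4 to 0.22 for Lamtor3, with edgeR adjusted p values of 0.582 to 0.864. Lamtor3 was the positive one, at 25.4 and 26.1 CPM against 29.7 and 30.2 CPM (SE 0.15). On the FPKM scale the subunits spanned from 3.92 for Lamtor3 to 29.1 for Lamtor5 (means of 4 libraries). That span depends on the lengths used, which were 7110 bases for Lamtor3 and 1444 for Lamtor5 as implied by counts and FPKM. In CPM, which does not divide by length, the subunits ran from 14.6 (Lamtor4) to 72.4 (Lamtor1) over the libraries.

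GATOR2 held the largest positive log2 fold change of all 35 members. Mios, a subunit with a propeller fold that is known to be needed for GATOR2 to relieve GATOR1, had counts of 279 and 393 in the WT-labelled pair and 618 and 666 in the KO-labelled pair. That is 21.4 and 23.1 CPM against 46.5 and 46.1 CPM, or 22.3 ± 1.20 and 46.3 ± 0.259 CPM (SD, n = 2 each). Every library labelled KO held about the same level, well above both labelled WT. The fitted fold was 2.08, 1.05 on the log2 scale (SE 0.15, 95% limits 0.71 and 1.40). The edgeR adjusted p was 0.053, just over the threshold, so Mios was not called, and 48 genes of 13528 had a smaller p. DESeq2 gave an adjusted p of 6.4e-06, and the adjusted p was under 0.05 in 6 of 12 alternatives, with a range of 6.4e-06 to 0.287. The 5 others were a fit with no filter, one with a stricter filter, the replicate block and the fits without either library labelled WT, which called 0.665%, 0.391%, 0.909%, 1.97% and 1.47% of all genes. It was over 0.05 under RLE and upper-quartile scaling (0.052 and 0.061) and by limma on log2(FPKM + 1) (0.125), with crossed replicate numbers (0.0887% of genes called) and without labelled KO replicate 1 (0.399%) or 2 (0.0222%). The log2 fold change itself ran only from 0.86, on log2(FPKM + 1), to 1.11. It was 1.01 and 1.11 (edgeR adjusted p = 0.043 and 0.0268) without labelled WT replicate 1 and 2, and 1.05 and 1.06 (edgeR adjusted p = 0.115 and 0.287) without labelled KO replicate 1 and 2. With a library left out, the lone library is assumed to vary like the pair of the other label.

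Mios (ENSMUSG00000042447) lies on chromosome 6 from 8209222 to 8236274 in GRCm38 and shares no exon base with another gene of GENCODE M21. Its partners in GATOR2 did not show a difference of that size. Wdr24 stood at 51.9 and 57.9 CPM in the WT-labelled pair and 65.1 and 57.0 CPM in the KO-labelled pair, with a log2 fold change of 0.15, and Wdr59 at 62.8 and 54.2 CPM against 68.0 and 64.7 CPM, with one of 0.18. Seh1l and Sec13, which serve in the nuclear pore as well, and Sec13 also in the COPII coat, had log2 fold changes of 0.03 and −0.02. The 95% limits of these 4 subunits reached at most 0.51, below the lower limit of Mios. These limits are for single genes and not adjusted for the choice of Mios as the largest. A difference between Mios and its partners was not tested. On the FPKM scale Mios was 0.527 and 0.661 times Wdr59 in the WT-labelled pair and 1.06 and 1.10 times in the KO-labelled pair. Against Wdr24 it was 0.298 and 0.289 times in the former and 0.516 and 0.585 times in the latter. The ratio of Wdr24 to Wdr59 overlapped, at 1.77 and 2.29 against 2.05 and 1.88.

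**Figure D3:**
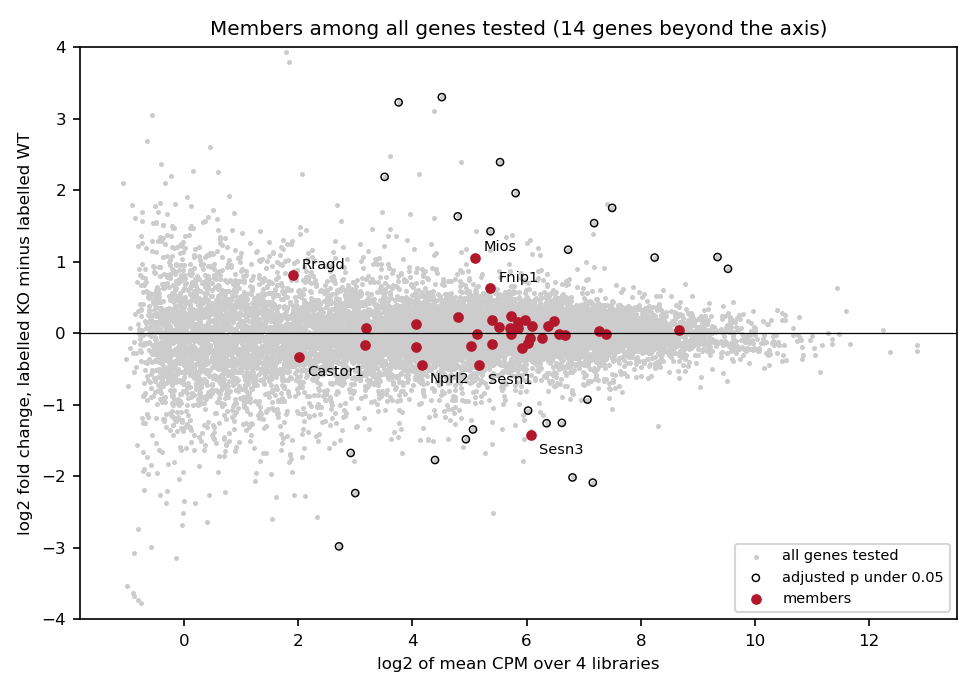
Log2 fold change (labelled KO minus labelled WT) against the log2 of mean CPM for all 13528 genes tested in grey, with genes under an adjusted p of 0.05 ringed and the 35 members in red. Most members lie close to 0 at middling to high levels, and Mios at 1.05 and Sesn3 at −1.43 lie at the edge of the cloud.

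GATOR1 is the complex that turns off RagA and RagB, with NPRL2 as its catalytic subunit. Nprl2 (chromosome 9 from 107542226 to 107545706) stood at 19.4 and 21.9 CPM in the WT-labelled pair and at 15.6 and 14.8 CPM in the KO-labelled pair. Both KO-labelled libraries were lower, 1.36-fold on average, with a log2 fold change of −0.44 (SE 0.16) and an edgeR adjusted p of 0.324. Depdc5, the subunit that contacts the Rag heterodimer, stood at 70.3 and 58.9 CPM against 58.1 and 53.4 CPM. Its log2 fold change was −0.21 (SE 0.14, edgeR adjusted p = 0.595), and its ranges nearly touched. Nprl3, the remaining subunit, stood at 15.8 and 16.0 CPM against 15.0 and 19.9 CPM, with a log2 fold change of 0.13. Of its exon bases 17.7% are shared with Mpg on the opposite strand. The FPKM ratio of Nprl2 to Nprl3 was 4.28 and 4.80 in the WT-labelled pair and 3.64 and 2.61 in the KO-labelled pair. The log2 fold changes of the 3 GATOR1 subunits thus had both signs.

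Folliculin with FNIP1 or FNIP2 acts on RagC and RagD, a step that sends the transcription factors TFEB and TFE3 to the cytoplasm. Fnip1 stood at 35.2 and 29.1 CPM in the WT-labelled pair and at 43.8 and 55.8 CPM in the KO-labelled pair. It was higher in both KO-labelled libraries, 1.55-fold, with a log2 fold change of 0.63 (SE 0.18, 95% limits 0.20 and 1.07) and an edgeR adjusted p of 0.244. Its paralogue Fnip2, outside the 35 members, stood at 13.6 and 13.1 CPM against 18.9 and 20.6 CPM, with a log2 fold change of 0.57 (SE 0.16, edgeR adjusted p = 0.238). Fnip1 was 3.73 to 4.54 times Fnip2 on the FPKM scale. Flcn itself varied between replicates of both labels, at 35.1 and 53.3 CPM in the WT-labelled pair and 59.1 and 34.8 CPM in the KO-labelled pair. Its ranges overlapped fully, with a log2 fold change of 0.08 (SE 0.29) whose sign turned to −0.18 without labelled WT replicate 1 and −0.35 without labelled KO replicate 1.

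The amino acid sensors held the largest negative log2 fold changes. Sesn1, a sestrin that binds leucine, stood at 47.1 and 36.4 CPM in the WT-labelled pair and at 29.1 and 31.8 CPM in the KO-labelled pair. Both KO-labelled libraries were lower, 1.37-fold, with a log2 fold change of −0.45 (SE 0.18) and an edgeR adjusted p of 0.357. The log2 fold change of Sesn1 was −0.25 without labelled WT replicate 1. Sesn3, a sestrin known as a target of FOXO factors, stood at 51.9 and 144 CPM against 35.2 and 37.9 CPM. Its high value was in labelled WT replicate 2 alone, and the 2.79-fold spread between the libraries labelled WT was wider than in 98.9% of genes tested. The log2 fold change was −1.43 (SE 0.42, edgeR adjusted p = 0.25). It was −0.50 without labelled WT replicate 2 (edgeR adjusted p = 0.253), and −1.98 without labelled WT replicate 1, where it passed the threshold (edgeR adjusted p = 0.00062). Sesn2, the remaining sestrin and a leucine sensor induced by amino acid stress, is outside the 35 members. It stood at 51.5 and 40.2 CPM against 50.1 and 56.5 CPM, with a log2 fold change of 0.22. The FPKM ratio of Sesn2 to Sesn1 was 1.28 and 1.29 in the WT-labelled pair and 2.01 and 2.07 in the KO-labelled pair. These ratios did not overlap, which in CPM was so for 44.9% of single genes tested. The share for ratios was not computed. Summed over the 3 sestrins, FPKM was 29.6 and 28.4 against 23.5 and 26.8. In CPM the sums were 150 and 221 against 114 and 126, the 221 being labelled WT replicate 2, where Sesn3 was high.

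The arginine sensor Castor1 had counts of 27 and 117 in the WT-labelled pair and 54 and 46 in the KO-labelled pair. That is 2.07 and 6.89 CPM against 4.06 and 3.18 CPM, so both KO-labelled libraries lay between those labelled WT. The 3.32-fold spread between the libraries labelled WT was wider than in 99.0% of genes tested. The log2 fold change of −0.33 had 95% limits of −1.56 and 0.90, and it was 0.80 without labelled WT replicate 2. A difference in Castor1 was not detectable at this depth and spread. Castor2, a paralogue, had a log2 fold change of 0.07 (95% limits −0.38 and 0.53), and its FPKM was 0.229 to 0.887 times that of Castor1. Sar1b, a COPII GTPase described as a leucine sensor, stood at 48.6 and 57.2 CPM against 51.1 and 53.7 CPM. At 38.0 FPKM on average it was the highest of the 5 sensor genes on that scale. Its log2 fold change was −0.01 (95% limits −0.36 and 0.33).

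**Figure D4:**
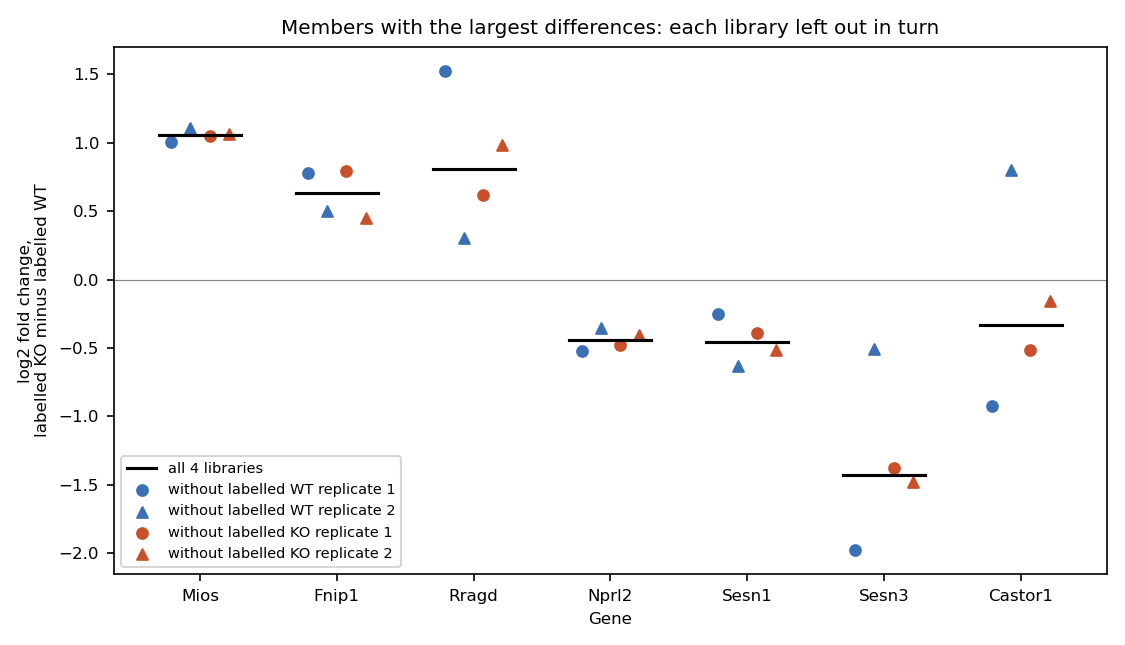
Log2 fold change (labelled KO minus labelled WT) of the 7 members furthest from 0, with all 4 libraries (black lines) and with each library left out in turn (points). Mios stays between 1.01 and 1.11, Sesn3 runs from −1.98 to −0.50, and Castor1 changes sign without labelled WT replicate 2.

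The promoters of the 5 members with an unadjusted p under 0.05 are printed here because the factors tied to this pathway bind short known sequences. They are windows of 300 bases around the annotated start in RefSeq on GRCm38.p6, 5′ to 3′, and capitals mark a match. The motifs searched on both strands, none of which overlaps another here, were CACGTG (the E-box core bound by TFEB, TFE3 and MYC), GTAAACA (a forkhead site as FOXO factors bind it) and TGATGCAA (a composite site of ATF4).
Mios promoter, chr6:8208977-8209276, plus strand: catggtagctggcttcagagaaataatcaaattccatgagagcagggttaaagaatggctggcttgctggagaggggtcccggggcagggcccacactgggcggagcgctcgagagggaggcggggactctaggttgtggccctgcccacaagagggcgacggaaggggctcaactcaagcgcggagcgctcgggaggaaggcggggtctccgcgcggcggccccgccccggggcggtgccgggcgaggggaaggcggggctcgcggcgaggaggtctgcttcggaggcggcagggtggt
Fnip1 promoter, chr11:54437929-54438228, plus strand: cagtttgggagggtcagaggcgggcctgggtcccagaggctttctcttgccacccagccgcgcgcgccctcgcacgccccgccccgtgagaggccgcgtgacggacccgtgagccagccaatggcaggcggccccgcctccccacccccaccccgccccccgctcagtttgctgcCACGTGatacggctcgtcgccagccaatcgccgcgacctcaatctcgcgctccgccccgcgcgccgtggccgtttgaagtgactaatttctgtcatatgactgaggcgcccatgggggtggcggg
Nprl2 promoter, chr9:107541959-107542258, plus strand: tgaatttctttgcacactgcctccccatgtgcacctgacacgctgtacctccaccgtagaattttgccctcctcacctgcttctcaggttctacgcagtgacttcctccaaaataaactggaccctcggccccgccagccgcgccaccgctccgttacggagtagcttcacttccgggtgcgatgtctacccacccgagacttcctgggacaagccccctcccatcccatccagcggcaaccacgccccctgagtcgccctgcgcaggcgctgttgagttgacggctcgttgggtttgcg
Sesn1 promoter, first window, chr10:41810324-41810623, plus strand: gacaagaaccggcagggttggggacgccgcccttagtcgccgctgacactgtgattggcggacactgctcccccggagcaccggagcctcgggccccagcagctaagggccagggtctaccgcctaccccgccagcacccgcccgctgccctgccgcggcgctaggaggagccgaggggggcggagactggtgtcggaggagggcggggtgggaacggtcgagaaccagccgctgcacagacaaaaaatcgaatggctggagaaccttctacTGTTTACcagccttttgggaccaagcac
Sesn1 promoter, second window, chr10:41887189-41887488, plus strand: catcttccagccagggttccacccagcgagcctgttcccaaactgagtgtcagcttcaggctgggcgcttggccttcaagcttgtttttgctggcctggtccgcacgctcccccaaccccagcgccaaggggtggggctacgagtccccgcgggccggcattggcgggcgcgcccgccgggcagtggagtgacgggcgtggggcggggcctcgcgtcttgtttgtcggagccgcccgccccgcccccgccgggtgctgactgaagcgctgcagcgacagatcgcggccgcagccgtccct
Sesn3 promoter, chr9:14276051-14276350, plus strand: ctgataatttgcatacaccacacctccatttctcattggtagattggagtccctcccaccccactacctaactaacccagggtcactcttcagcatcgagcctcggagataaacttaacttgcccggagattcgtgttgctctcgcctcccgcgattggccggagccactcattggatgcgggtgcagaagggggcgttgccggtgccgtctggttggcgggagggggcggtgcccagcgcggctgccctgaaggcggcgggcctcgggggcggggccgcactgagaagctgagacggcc
These genes span chromosome 11 from 54438199 to 54518235 (Fnip1), chromosome 10 from 41809935 to 41908424 (Sesn1) and chromosome 9 from 14275067 to 14333101 (Sesn3), as deposited. The Fnip1 window holds 1 E-box, and the first of the Sesn1 windows holds 1 forkhead match, read on the opposite strand as TGTTTAC. The second Sesn1 window and those of Mios, Nprl2 and Sesn3 hold none of the 3 motifs, which says only that these letters are not in these windows. Of the members 31 had a promoter in the RefSeq table, with 32 windows. The E-box was in 6 of these windows (18.8%), those of Rheb, Rragb, Rragc, Lamtor1, Lamtor4 and Fnip1, where 7.15% of all 32851 windows hold it. The log2 fold changes of these 6 genes had both signs, from −0.20 for Lamtor4 to 0.63 for Fnip1. The forkhead motif was in 1 member window and in 3.65% of all windows, and the ATF4 motif in 0 member windows and in 0.895% of all. A match describes the sequence and is not a bound site.

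The targets of the kinase had similar values under both labels. Eif4ebp1, which encodes a repressor of cap-dependent translation that mTORC1 inactivates, stood at 59.5 and 76.6 CPM in the WT-labelled pair and 68.0 and 55.9 CPM in the KO-labelled pair. The log2 fold change was −0.14 (SE 0.17), with overlapping libraries. Eif4ebp2, its paralogue, was the most abundant member on the FPKM scale, at 56.1 and 57.3 FPKM against 61.3 and 57.2 FPKM, 2.00 to 2.63 times Eif4ebp1. Its log2 fold change was 0.05 (95% limits −0.22 and 0.31). Rps6kb1, the S6 kinase, had a log2 fold change of 0.10 (95% limits −0.18 and 0.38), and 1.8% of its exon bases are shared with Rnft1 on the opposite strand.

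**Figure D5:**
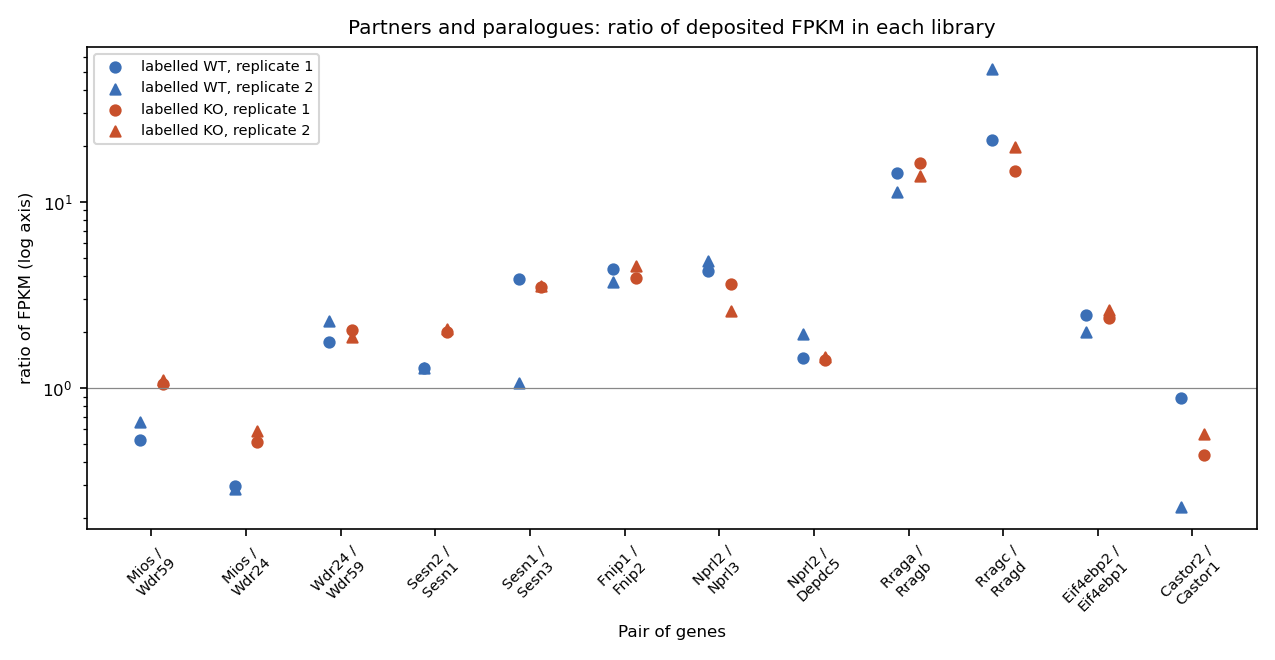
Ratio of deposited FPKM within pairs of partners or paralogues in each library, on a log axis, with blue for libraries labelled WT and red for those labelled KO (circles replicate 1, triangles replicate 2). Mios against Wdr59 and Wdr24, Sesn2 against Sesn1, Nprl2 against Nprl3 and Rragc against Rragd do not overlap between labels. The other pairs overlap, with Sesn1 against Sesn3 set apart by labelled WT replicate 2 at 1.06. How often ratios of other gene pairs do not overlap was not computed. Among single genes tested, 44.9% had no overlap of CPM.

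A list of 66 other genes of the pathway was read beside the members: mTORC2 subunits, KICSTOR, further sensors, upstream kinases, further outputs and the vacuolar ATPase. Of these, 63 were tested. Kics2, a KICSTOR subunit, was not found under that name, and Rnf152 and Prkaa2 did not pass the filter on low counts. By edgeR, 1 passed the threshold, in the negative direction, and 0 in the positive, where 0.103% of all genes did in each direction. That gene was Ddit4, whose product REDD1 restrains mTORC1 through TSC, with a log2 fold change of −0.93 (SE 0.11, edgeR adjusted p = 0.0425). It lost its call without labelled KO replicate 1 (edgeR adjusted p = 0.118) and without labelled KO replicate 2 (edgeR adjusted p = 0.188), where the log2 fold changes were −0.88 and −0.98. The median log2 fold change of the 63 was 0.00, with 32 positive and 31 negative. At an unadjusted p under 0.05 were 3 positive and 3 negative genes, where the shares over all genes were 5.7% and 7.23%. Besides Ddit4 and Fnip2 these were Itfg2, a KICSTOR subunit that helps hold GATOR1 on the lysosome (log2 fold change 0.45, SE 0.16), Eif4e, the cap-binding protein that 4E-BP sequesters (0.31, SE 0.13), Srebf1, a lipid synthesis factor that mTORC1 promotes (−0.41, SE 0.15), and Prr5l, a partner of mTORC2 (−1.64, SE 0.40). Prr5l rested on 25 and 33 counts in the WT-labelled pair and 9 and 8 in the KO-labelled pair. The edgeR adjusted p values of these 4 were 0.31, 0.374, 0.327 and 0.19. The 16 subunits and accessory proteins of the vacuolar ATPase, the pump that docks Ragulator, had log2 fold changes from −0.32 to 0.44 with a median of −0.01, and 0 had an unadjusted p under 0.05.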

How the data were processed

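RNA was extracted from the cells, mRNA was selected on Dynabeads and a stranded kit made the libraries, per the labels' protocols. The authors deposited counts per gene and FPKM, per the file headers. Kallisto and GRCm38 are named in the submitters' processing notes with no version or role. For the counting rule, its use of strand and any filters, the sources used here give nothing. The table's 8 other value columns match no sample and were not used.

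Columns were joined to samples by description code. Genes were filtered with filterByExpr (13528 kept of 53465), scaled by TMM and put through the quasi-likelihood test of edgeR 4.0.16 in R 4.3.3, two-sided, with Benjamini-Hochberg adjustment over all genes tested and a threshold of 0.05. The SE is the log2 fold change over the square root of F, and 95% limits use the fit's degrees of freedom. The biological coefficient of variation was 15.9%. Replicates differed by more than counting noise (chi-square over degrees of freedom of 17.6 and 12.8). Alternatives were DESeq2 1.42.0, other scalings and filters, a replicate block, limma 3.58.1 on log2(FPKM + 1) and each library left out. Overlaps come from GENCODE M21, where 33 of 35 members have the deposited locus.

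The members and gene lists were chosen with earlier results of these data known. Full values are given for members with an unadjusted p under 0.05, the 10 with the largest absolute log2 fold change and 1 gene per complex.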

Additional observations from a re-analysis of the deposited data

How the results depend on the processing

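Of the 35 members, 18 kept the sign of their log2 fold change in all 12 alternatives, and 17 had another sign in at least 1. Of the 17, 14 did so only with a library left out. The largest absolute log2 fold change among them with all libraries was 0.33, that of Castor1. On log2(FPKM + 1), Tsc2, Sec13 and Sar1b turned to 0.0055, 0.0066 and 0.0084. With each library left out in turn, log2 fold changes ran from −0.11 to 0.057 for Mtor, −0.11 to 0.22 for Rictor, −0.10 to 0.062 for Akt1s1, −0.090 to 0.25 for Tsc1, −0.069 to 0.048 for Tsc2, −0.36 to 0.088 for Rragb, −0.16 to 0.021 for Lamtor1, −0.29 to 0.0052 for Lamtor5, −0.35 to 0.42 for Flcn, −0.082 to 0.32 for Nprl3, −0.0082 to 0.075 for Seh1l, −0.20 to 0.19 for Sec13, −0.92 to 0.80 for Castor1, −0.035 to 0.19 for Castor2, −0.12 to 0.11 for Sar1b, −0.30 to 0.056 for Eif4ebp1 and −0.023 to 0.12 for Eif4ebp2. The median over the members ran from −0.023 to 0.056. The cause was not tested.

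The number of members called was 0 by edgeR, 1 (Mios) by DESeq2, with no filter, with a stricter filter and with the replicate block, and 0 to 2 with a library left out. The number of all genes called was 28 by edgeR, 277 by DESeq2, 146 of 21960 with no filter, 50 of 12772 with a stricter filter, 5 by limma on log2(FPKM + 1) and 3 to 266 with a library left out. Of the other pathway genes, 0 were called by limma on log2(FPKM + 1), where Ddit4 had an adjusted p of 0.0881, and 0 to 2 with a library left out. Replicate numbers were not shown to pair the libraries: same-numbered libraries had a correlation of deviations of −0.165, and the replicate block called 123 genes. With crossed numbers, an alternative chosen after seeing the data, 12 genes, 0 members and 0 other pathway genes were called. With 2 libraries a label, members with few counts, such as Rragd and Castor1, have wide limits.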

Other observations

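The tested genes beside the 5 members with an unadjusted p under 0.05 were read as values. On either side of Mios, Gm9825 (225839 bases away) and Rpa3 (19662 bases away) had log2 fold changes of 0.07 (SE 0.13) and 0.11 (SE 0.14). Cyb561d2, whose locus lies 33 bases from that of Nprl2, had one of 0.06 (SE 0.18). Cep57l1, 64 bases from Sesn1, had one of −0.14 (SE 0.16). On the other side of these members, Rassf1, 5849 bases from Nprl2, had one of 0.15 (SE 0.17). Gm9855, 145689 bases from Sesn1, had one of 0.40 (SE 0.19). Both were opposite in sign to the member. Rapgef6, an exchange factor for Rap GTPases beside Fnip1, stood at 131 and 108 CPM in the WT-labelled pair and 142 and 154 CPM in the KO-labelled pair. Its log2 fold change was 0.31 (SE 0.13, edgeR adjusted p = 0.386). Gm12226, 36232 bases away on the other side of Fnip1, had one of −0.22 (SE 0.21), opposite in sign to Fnip1. Endod1, 20889 bases from Sesn3, stood at 12.1 and 10.9 CPM against 5.64 and 7.55 CPM, lower in both KO-labelled libraries. Its log2 fold change was −0.80 (SE 0.22, edgeR adjusted p = 0.227), and unlike Sesn3 its libraries labelled WT were close to each other. Fam76b, 420080 bases away on the other side of Sesn3, had one of 0.09 (SE 0.17), opposite in sign to Sesn3.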
